A study of Felis catus with 8 samples.

Results

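The nuclear receptors of metabolism and hormones are described here in liver of male cats raised on 4 diets. The set was a list of 37 receptor genes, and a receptor counted as measured where at least 1 probe set of the array was annotated to that gene and to no other. Of the 37 receptors 36 were measured, among 18701 genes with such a probe set, and HNF4A was not analysed here. Together the 36 receptors had 474 probe sets of the 224320 annotated to exactly 1 gene.

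Nuclear receptors are transcription factors, most of which bind a small fat-soluble ligand such as a fatty acid, an oxysterol, a retinoid, thyroid hormone or a steroid. Many receptors of lipid, retinoid and thyroid signalling bind DNA as pairs with a retinoid X receptor and exchange corepressors for coactivators when the ligand arrives. In liver they are known for setting the rates of fatty acid oxidation, lipid synthesis, bile acid synthesis and drug clearance, and their own activity is governed largely by ligand rather than by the amount of receptor RNA.

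Liver RNA of cats aged 9 months was hybridised to human whole-transcript arrays, 2 arrays for each diet and 8 in all. Control cats ate plain cat chow. Cats on the MSG diet had that chow with monosodium glutamate (MSG) at 1.125%. The trans-fat/HFCS diet contained trans fat at 8.6% and high-fructose corn syrup (HFCS), a sweetener, at 24%, and cats on the combined diet received all of these additions at the same percentages. All cats were male. Their dams had begun the same diet 3 weeks before mating and stayed on it through nursing, and the kittens went on with it after weaning. In the labels each of the 8 arrays carries a cat number of its own and the arrays of a diet are called biological replicates. Litters and any pooling of RNA are not stated there, so the p-values measure the spread between arrays, which may each hold 1 cat or a pool. Log2 values are of the deposited intensity, and a gene value is the mean log2 intensity of the probe sets of that gene that lay above the median of all probe sets (log2 2.43, an intensity of 5.38). Differences were tested with limma in a model of the 4 diets, adjusted over 17910 genes by the Benjamini-Hochberg method at 0.05. The trans-fat/HFCS main effect set the 4 arrays with trans fat and HFCS against the 4 without, and the MSG main effect set the 4 arrays with MSG against the 4 without. In bulk liver, fewer cells of a type and less RNA per cell cannot be told apart.

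The hepatocyte markers were present on every array. Of 17 listed markers 16 were measured, the lowest at log2 5.59, and their summed intensity ran from 5744 to 6400 over all arrays with 0 of the 16 passing either main effect or the F-test in limma. Skeletal muscle markers differed between diets. Their summed intensity was 891.1 to 908.3 on the arrays of the trans-fat/HFCS diet, against 252 to 260.6 in control, 256.1 to 260.9 in MSG and 242.4 to 265.5 on the combined diet, and 11 of 16 were higher in the trans-fat/HFCS main effect, 9 passed the MSG main effect and 13 the F-test. Among 11 stellate cell and fibroblast markers 2 were lower, and among 11 Kupffer cell and macrophage markers 2 were higher in the trans-fat/HFCS main effect, beside 7.66% of all genes called. The stellate sum was 317.9 to 336 in control, 316.5 to 318.5 in MSG, 294.5 to 297.8 in trans-fat/HFCS and 234.2 to 243.7 in combined. Combined and MSG, compared below, thus differed in these markers. The part of these cells in the receptor results below was not tested. Values without the arrays of the trans-fat/HFCS diet are given where a receptor passed the test. With those arrays left out, the trans-fat/HFCS main effect is combined against MSG, and the MSG main effect is MSG against control.

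Above the median of all probe sets lay 24 of the 36 receptors (66.7%), judged by the median over the probe sets of each gene, against 54.4% of all 18701 genes. Of the single probe sets 269 of 474 (56.8%) lay above it, against 49.8% of all probe sets with 1 gene. For 9 receptors the median probe set also lay above the 75th percentile of all probe sets (log2 3.70), a share not computed over all genes. These were NR2F2 (COUP-TFII, an orphan receptor of vessels and mesenchyme) at 6.98, NR5A2 (LRH-1, a regulator of bile acid and cholesterol genes) at 6.95, RARB at 5.57, NR2F6 at 5.46, NR2F1 at 4.76, RXRA at 4.63, THRB at 4.55, NR6A1 at 4.53 and NR3C2 at 4.18. Levels of different receptors come from different probes and give no order of abundance.

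The other 12 receptors lay at or below the median: PPARA, PPARD, RXRG, VDR, RORB, NR1I3, NR2E1, ESR2, ESRRB, ESRRG, PGR and NR5A1. PPARA, the fatty acid sensor that switches on hepatic fat oxidation, had its median probe set at log2 2.02, with 2 of 15 probe sets above the median. NR1I3 (CAR, a sensor of drugs and bilirubin) was similar at 2.01, with 2 of 11 above. The match of cat RNA to these human probes was not tested, and a low value is not read here as a low amount of transcript.

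Within each diet, position was judged against the median of all probe sets in that diet. It was the same in all diets for 17 receptors that lay above that median and 9 that lay below it. The remaining 10, NR1H2, RARA, RARG, RORB, HNF4G, NR2C2, NR2E3, ESR1, ESRRB and PGR, changed side between diets. Several of them lay close to the cut over all arrays, such as NR1H2 at 2.43, PGR at 2.40 and NR2C2 at 2.48. The share of all genes that changed side was not computed. By role, 5 of 6 retinoid receptors and partners lay above the median, as did 6 of 7 in the group of TR2, TR4, TLX, PNR and the COUP factors, 3 of 4 in the NR5, NR6 and NR0 group, and 2 of 3 thyroid hormone and vitamin D receptors. Of 4 lipid sensors 2 lay above it, of 5 oestrogen and oestrogen-related receptors 2, and of the paired groups of ROR orphans, xenobiotic sensors and NR3C steroid receptors 1 of 2 each. Even in the dim receptors some probe sets were bright, as in ESR2, where the median was 2.04 and the brightest of 27 probe sets was at 9.08.

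**Figure D1:**
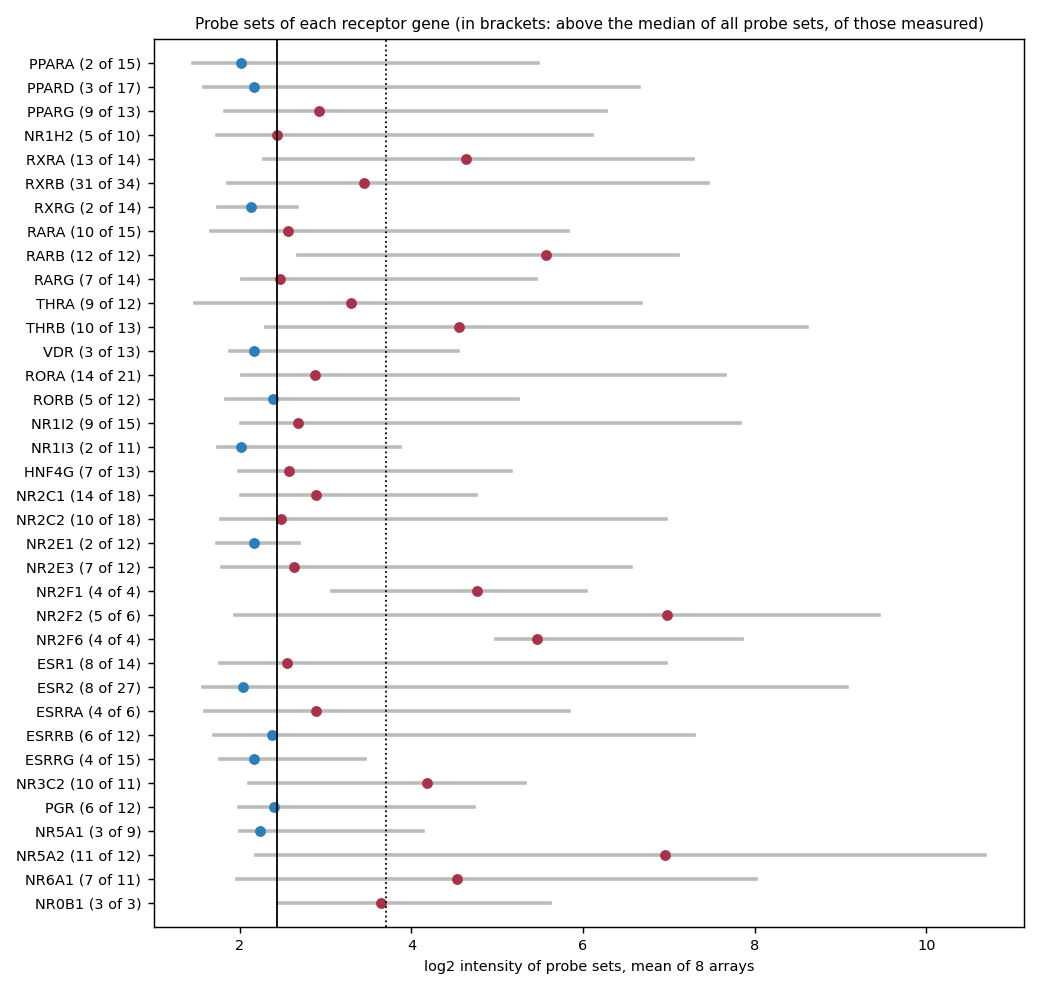
Level of each of the 36 measured receptors, as the log2 intensity of its single-gene probe sets averaged over 8 arrays, in role groups. The line at log2 2.43 is the median of all probe sets, and 24 receptors have their median above it, NR2F2 (6.98) and NR5A2 (6.95) well above it and PPARA (2.02) below it.

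Of the receptors 1 of 36 (2.78%) passed the trans-fat/HFCS main effect in limma, against 7.66% of all genes, and 0 of 36 passed any of the other 6 tests or the differences of the combined diet from MSG and from trans-fat/HFCS. The share of all genes called was 0.329% for the MSG main effect, 0.151% for the interaction, 0.296% for MSG against control, 2.48% for trans-fat/HFCS against control, 1.16% for combined against control, 1.66% for combined against MSG, 0.179% for combined against trans-fat/HFCS and 3.20% for the F-test over the 4 diets. At an unadjusted p under 0.05 the receptors numbered 4 in the trans-fat/HFCS main effect, 3 in the MSG main effect, 0 in the interaction, 4 in MSG against control, 4 in trans-fat/HFCS against control, 3 in combined against control, 4 in combined against MSG, 1 in combined against trans-fat/HFCS and 2 in the F-test. The shares of all genes at that level were 24.5%, 7.91%, 9.07%, 7.64%, 18.3%, 16.5%, 17.3%, 8.98% and 19.7% in the same order.

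The differences of the receptors in gene value were small. Their median log2 difference was -0.03 in the trans-fat/HFCS main effect beside 0.02 over all genes, and the median size was 0.12 beside 0.19. In the MSG main effect the median was -0.03 beside 0.00, and the median size was 0.12 in both. The 95% interval lay within a 2-fold change in either direction for 35 of 36 receptors in the trans-fat/HFCS main effect (97.2%, beside 92.4% of all genes) and for all 36 in the MSG main effect (beside 97.3%). For the interaction the interval lay within that range for 23 of 36 (63.9%, beside 58.4%), so a difference of that size was less closely bounded there. All these intervals are for the mean over kept probe sets. They leave out the choice of summary, under which some receptors moved further, as given below for RXRB and NR2E3.

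**Figure D2:**
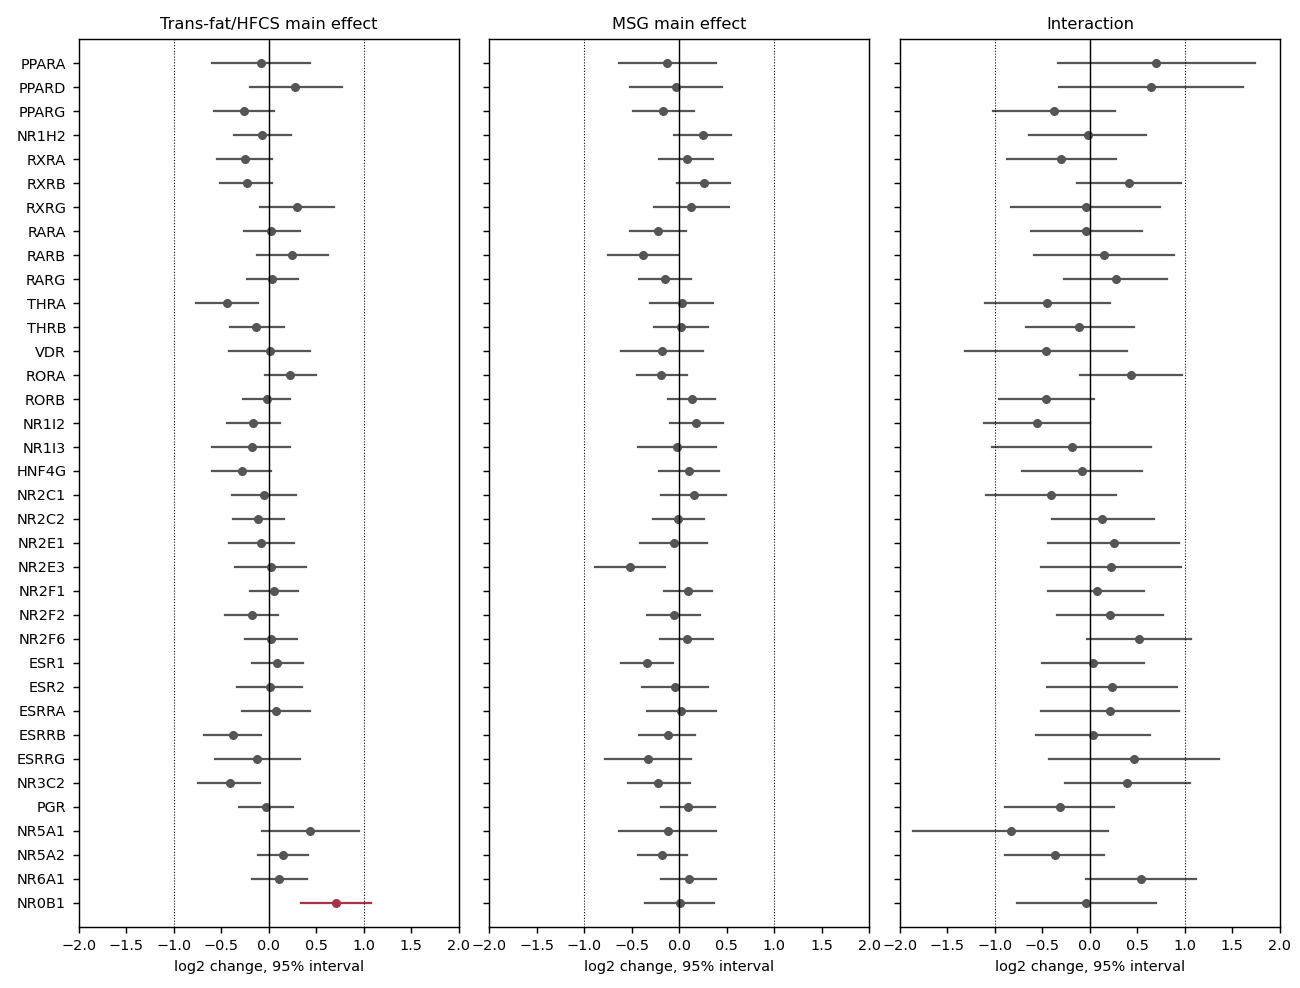
Log2 difference (point) with its 95% interval (line) for each receptor in the trans-fat/HFCS main effect, the MSG main effect and the interaction, with dotted lines at a 2-fold change. NR0B1 is the receptor that passed the adjusted threshold, at 0.71 in the trans-fat/HFCS main effect, and the intervals of the interaction are wider than those of the main effects.

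NR0B1 (DAX-1) is an orphan receptor without the usual DNA-binding domain that represses other receptors, NR5A1 among them, and is best known from adrenal gland and gonad. Its gene value was 3.60 and 3.46 on the control arrays, 3.28 and 3.83 on MSG, 4.48 and 4.04 on trans-fat/HFCS and 4.30 and 4.19 on the combined diet. All 4 arrays with trans fat and HFCS lay above all 4 without. The trans-fat/HFCS main effect was 0.71 on the log2 scale (SE 0.16, 1.63-fold, adjusted p = 0.032 in limma).

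The difference in NR0B1 was of like size on both bases. It was 0.73 between trans-fat/HFCS and control (adjusted p = 0.14) and 0.69 between combined and MSG (adjusted p = 0.17), where the muscle markers were not raised, and the interaction was -0.04. With the 2 arrays of the trans-fat/HFCS diet left out of the fit, that same difference between combined and MSG had an adjusted p of 0.16. It is not a second comparison. The call was also lost with the median of probe sets in place of the mean (0.28, adjusted p = 0.72), and on leaving out control array 1 or 2 (adjusted p = 0.088 and 0.11), MSG array 1 (0.1), trans-fat/HFCS array 1 (0.091) or combined array 1 or 2 (0.078 and 0.054). It was kept without MSG array 2 (adjusted p = 0.035) and without trans-fat/HFCS array 2 (0.041).

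NR0B1 had 3 probe sets, which differed by 0.28, 0.61 and 1.24 on the log2 scale. The one at 0.61 (8171893) read 2.09 to 2.27 without trans fat and HFCS, below the median of all probe sets, and 2.55 to 2.92 with them, so it was kept only through the diets where it was high and gives no support of its own. All 3 entered the gene value with or without the filter. Probe set 8171895 gave 5.26 and 5.30 on control, 4.52 and 4.89 on MSG, 5.99 and 6.34 on trans-fat/HFCS and 6.56 and 6.05 on the combined diet. It passed the probe set fit of limma on its own (1.24, SE 0.22, adjusted p = 0.042), and lost that call on leaving out any 1 of the 8 arrays (adjusted p = 0.062 to 0.15). Markers of adrenal cortex and gonad did not separate the diets, with summed intensities of 140.9 to 151.4 in control, 138.6 to 147.6 in MSG, 140.7 to 161.9 in trans-fat/HFCS and 135.9 to 176.7 in combined, and 1 of 8 (FSHR) was higher in the trans-fat/HFCS main effect.

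The other members of the same group are NR5A1 (SF-1, the regulator of steroid synthesis genes that NR0B1 represses), NR5A2 and NR6A1 (GCNF, known from germ cells). NR5A1 read 3.01 and 3.39 on control, 3.45 and 3.55 on MSG, 4.11 and 4.01 on trans-fat/HFCS, and 4.09 and 2.95 on the combined diet. One combined array was the lowest of the 8, while the other lay with the trans-fat/HFCS arrays, and the main effect of 0.44 did not pass (SE 0.23, adjusted p = 0.27). Without combined array 2 it did (0.72, adjusted p = 0.029), and with the brightest probe set alone it was -0.29. NR5A2 stayed between 6.82 and 7.28 on all 8 arrays, with a main effect of 0.15 (adjusted p = 0.46).

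**Figure D3:**
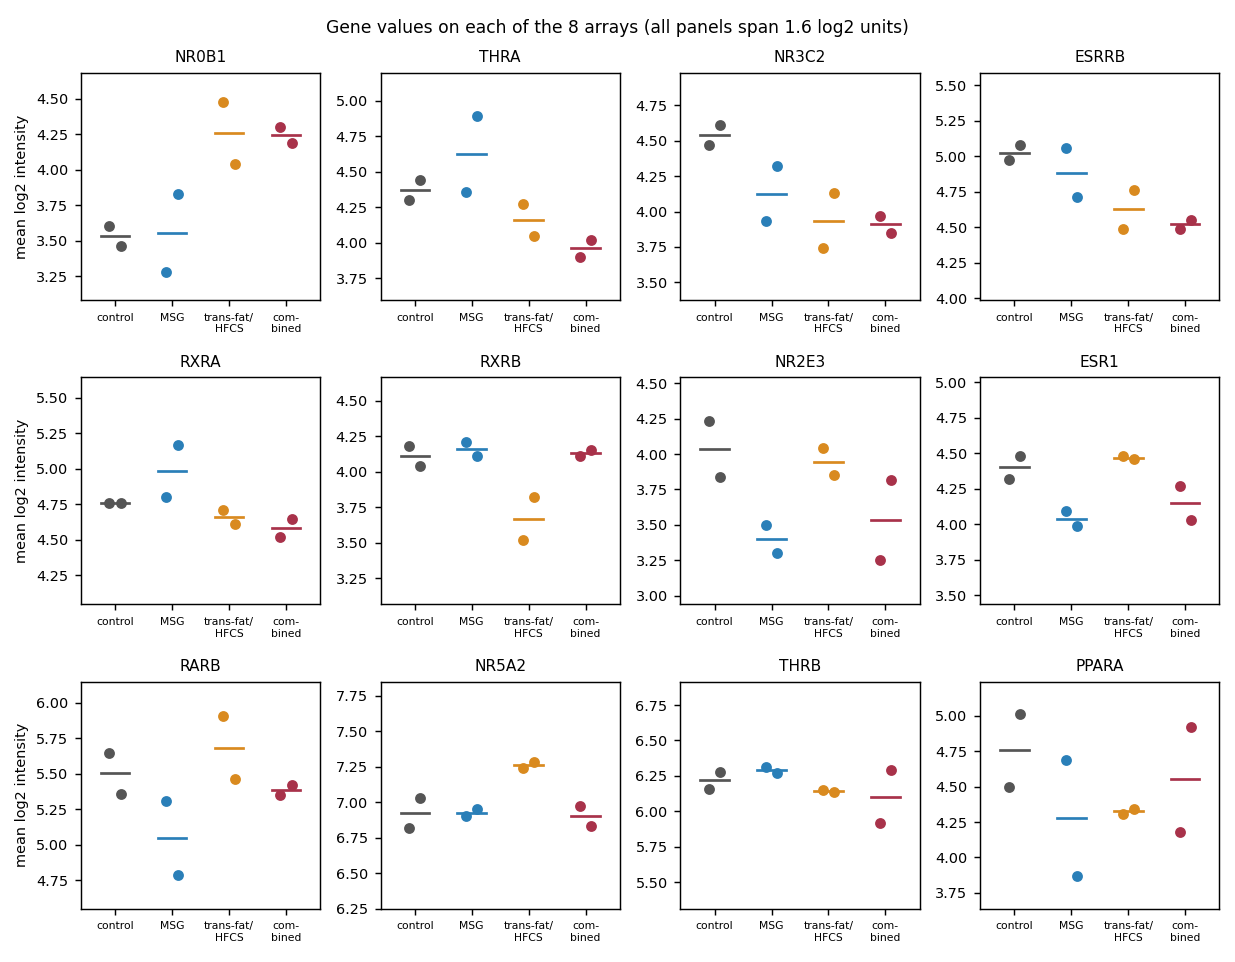
Gene value (mean log2 intensity of kept probe sets) on each of the 8 arrays for receptors described in the text, with a bar at the mean of each diet. The 4 arrays of NR0B1 with trans fat and HFCS lie between 4.04 and 4.48, above the 4 without (3.28 to 3.83).

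Groups of 4 arrays did not overlap for 3 receptors in the trans-fat/HFCS comparison (8.33%, beside 15.0% of all genes). These were NR0B1, higher, and RXRA and THRA, lower. In the MSG comparison they were NR2E3 and ESR1, both lower (5.56%, beside 2.68%).

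Among the lipid sensors, PPARG (a driver of fat storage) had the smallest F-test p. Its values were 3.65 and 4.15 on control, 3.81 and 4.03 on MSG, 3.85 and 3.81 on trans-fat/HFCS and 3.50 and 3.44 on the combined diet. The combined arrays were the lowest of the 8, but the trans-fat/HFCS main effect of -0.26 (SE 0.14) did not pass (adjusted p = 0.29). PPARA rested on 2 kept probe sets, its gene value ranged from 3.87 to 5.01 over the arrays, and its main effect was -0.08 with a 95% interval from -0.60 to 0.44. PPARD, the broadly expressed fatty acid receptor, had a main effect of 0.28 (95% interval -0.20 to 0.77), and NR1H2 (LXR beta, an oxysterol receptor) one of -0.07 (-0.37 to 0.24).

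The retinoid X receptors are the common partners of many of the others. RXRA gave 4.76 and 4.76 on control, 4.80 and 5.17 on MSG, 4.71 and 4.61 on trans-fat/HFCS and 4.52 and 4.65 on the combined diet. Every array with trans fat and HFCS lay below every array without, by a main effect of -0.25 (SE 0.13) that did not pass (adjusted p = 0.26).

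RXRB gave 4.18 and 4.04 on control, 4.21 and 4.11 on MSG, 3.52 and 3.82 on trans-fat/HFCS and 4.11 and 4.15 on the combined diet. The trans-fat/HFCS arrays were the lowest, while the combined arrays lay within the range of control and MSG. Neither the main effect of -0.23 (SE 0.12, adjusted p = 0.28) nor the difference of -0.44 from control (adjusted p = 0.22) passed. Of its 34 probe sets 18 carried the same values as another, which left 16 distinct ones, and counting each once gave a main effect of -0.44 (adjusted p = 0.062) with no change in which receptors passed. The value rested on the summary: it was -0.57 (adjusted p = 0.037) with the 75th percentile filter, -3.03 (adjusted p = 0.0014) with the brightest probe set, 0.19 (adjusted p = 0.73) with the median of probe sets and -0.03 (adjusted p = 0.95) without the trans-fat/HFCS arrays.

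The retinoic acid receptors differed little. RARB read 5.65 and 5.36 on control, 5.31 and 4.79 on MSG, 5.91 and 5.46 on trans-fat/HFCS and 5.35 and 5.42 on the combined diet. Both arrays of the MSG diet were below the other 6, but the 4 arrays with MSG overlapped the 4 without, and the MSG main effect of -0.38 (SE 0.16) had an adjusted p of 0.62. RARA and RARG had trans-fat/HFCS main effects of 0.03 and 0.04, with 95% intervals of -0.26 to 0.33 and -0.23 to 0.31. RXRG rested on 2 kept probe sets and read 2.16 to 2.97.

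THRA, the thyroid hormone receptor of heart, muscle and brain, had the values 4.30 and 4.44 on control, 4.36 and 4.89 on MSG, 4.27 and 4.05 on trans-fat/HFCS and 3.90 and 4.02 on the combined diet. The arrays with trans fat and HFCS lay below those without, the nearest being 4.27 against 4.30. The main effect was -0.44 (SE 0.15, 95% interval -0.77 to -0.11), with an adjusted p of 0.11 in limma. It passed where only probe sets above the 75th percentile were averaged (-0.86, adjusted p = 0.016) and with the brightest probe set alone (-0.87, adjusted p = 0.031). It also passed with 16 added to each intensity before the logarithm (-0.30, adjusted p = 0.03). It did not pass with the median of probe sets (-0.60, adjusted p = 0.24) or without the trans-fat/HFCS arrays (-0.66, adjusted p = 0.17). On leaving out each array in turn it ran from -0.57 to -0.31.

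THRB, the main thyroid hormone receptor of liver, varied little in its gene value. Its values were 6.16 and 6.28 on control, 6.31 and 6.27 on MSG, 6.15 and 6.14 on trans-fat/HFCS and 5.92 and 6.29 on the combined diet, a span of 0.39. The trans-fat/HFCS main effect was -0.13 (95% interval -0.41 to 0.16). Of the 10 kept probe sets of THRB 9 were lower with trans fat and HFCS and 1 was higher. They ran from -0.57 to 1.06, with a median of -0.27. VDR, the vitamin D receptor, had a main effect of 0.01 (95% interval -0.42 to 0.44).

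RORA, a regulator of clock and lipid genes, gave 4.71 and 4.95 on control, 4.44 and 4.41 on MSG, 4.92 and 4.77 on trans-fat/HFCS and 4.92 and 4.84 on the combined diet. Both MSG arrays were below the other 6. The F-test of limma did not pass (adjusted p = 0.3). RORB, known from brain and retina, read 2.88 to 3.29 over the arrays.

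NR1I2 (PXR, the drug sensor that induces cytochrome genes) read 4.37 and 4.58 on control, 4.78 and 5.09 on MSG, 4.61 and 4.58 on trans-fat/HFCS and 4.53 and 4.47 on the combined diet. The MSG arrays were the highest, by 0.46 over control (adjusted p = 0.56). NR1I3 rested on 2 kept probe sets and had a trans-fat/HFCS main effect of -0.18 (95% interval -0.60 to 0.23).

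HNF4G, a relative of the liver regulator HNF4A, gave 3.77 and 4.05 on control, 4.26 and 3.85 on MSG, 3.57 and 3.77 on trans-fat/HFCS and 3.78 and 3.68 on the combined diet. The ranges with and without trans fat and HFCS overlapped, and the main effect was -0.28 (SE 0.14, adjusted p = 0.25).

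NR2E3 (PNR, a receptor of photoreceptor cells) read 4.23 and 3.84 on control, 3.50 and 3.30 on MSG, 4.04 and 3.85 on trans-fat/HFCS and 3.25 and 3.82 on the combined diet. All 4 arrays with MSG lay below all 4 without. The MSG main effect was -0.52 (SE 0.16, 1.44-fold lower), with an unadjusted p of 0.011 and an adjusted p of 0.43. It passed with the 75th percentile filter (-1.93, adjusted p = 0.0043), which left 2 of its probe sets. With the brightest probe set it was 0.10 (adjusted p = 0.96). Of the 7 kept probe sets of NR2E3 5 were higher and 2 lower with MSG, with a median of 0.07. The lowest, at -3.97, was probe set 7984615, described below. The COUP factors NR2F1, NR2F2 and NR2F6 had trans-fat/HFCS main effects of 0.06, -0.18 and 0.03, and NR2F1 spanned 0.22 over the 8 arrays, from 4.58 to 4.80. NR2C1 and NR2C2 (TR2 and TR4) had main effects of -0.05 and -0.11, and NR2E1 (TLX, of neural stem cells) one of -0.08 on 2 kept probe sets.

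ESRRB, an orphan receptor of embryonic stem cells, had the smallest F-test p among the oestrogen and oestrogen-related receptors. Its values were 4.97 and 5.08 on control, 5.06 and 4.71 on MSG, 4.49 and 4.76 on trans-fat/HFCS and 4.49 and 4.55 on the combined diet. The groups overlapped by 1 array of each side (4.76 against 4.71), and the main effect of -0.38 (SE 0.13) did not pass (adjusted p = 0.12). All 6 of its kept probe sets were lower with trans fat and HFCS, by 0.11 to 0.81 on the log2 scale.

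ESR1, the main oestrogen receptor of liver, gave 4.32 and 4.48 on control, 4.09 and 3.99 on MSG, 4.48 and 4.46 on trans-fat/HFCS and 4.27 and 4.03 on the combined diet. The 4 arrays with MSG lay below the 4 without, by a main effect of -0.34 (SE 0.12, adjusted p = 0.52). ESR2, ESRRA (a regulator of mitochondrial genes) and ESRRG had trans-fat/HFCS main effects of 0.01, 0.08 and -0.12.

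NR3C2, the mineralocorticoid receptor, read 4.47 and 4.61 on control, 3.93 and 4.32 on MSG, 3.74 and 4.13 on trans-fat/HFCS and 3.97 and 3.85 on the combined diet. Control was the highest and the other 3 diets overlapped one another. The trans-fat/HFCS main effect was -0.41 (SE 0.14, adjusted p = 0.12), and the F-test had an unadjusted p of 0.043 and an adjusted p of 0.24. PGR, the progesterone receptor, had a main effect of -0.03 (95% interval -0.31 to 0.26).

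Single probe sets moved further than the gene values. Of the 269 kept probe sets of the receptors 8 passed the trans-fat/HFCS main effect (2.97%, beside 2.45% of all kept single-gene probe sets), 6 higher and 2 lower, in 6 genes. In the MSG main effect 2 passed, both lower (0.743%, beside 0.151%). These 2 also passed MSG against control (beside 0.120%), 4 passed trans-fat/HFCS against control (beside 0.927%), 1 each passed combined against control (beside 0.0645%) and combined against MSG (beside 0.486%), and 6 passed the F-test (beside 1.02%). In the interaction and in combined against trans-fat/HFCS 0 passed, beside 0.0618% and 0.0968%. On leaving out each array in turn, the calls of probe sets 8178916, 8125648 and 8122842 described below were kept each time (adjusted p of at most 0.045), and each of the others was lost without at least 1 array. Without both trans-fat/HFCS arrays the trans-fat/HFCS main effect was combined against MSG alone. There all 8 calls were lost, and 0 receptor probe sets passed. The MSG main effect was there MSG against control, at -4.93 in NR2E3 (adjusted p = 0.04) and -4.04 in RARB (adjusted p = 0.055). In the fit of all 8 arrays the same 2 differences passed (adjusted p = 0.013 and 0.023). They are therefore no further check of the MSG main effect.

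RXRB held both of the lower calls. Probe set 8178916 gave 9.11 and 9.03 on control, 9.27 and 8.45 on MSG, 4.53 and 5.34 on trans-fat/HFCS and 6.89 and 6.96 on the combined diet, a main effect of -3.03 (SE 0.28, adjusted p = 0.0062) that was -1.94 without the trans-fat/HFCS arrays (adjusted p = 0.14). Probe set 8125648 gave 7.20 and 7.17, 7.34 and 6.69, 4.37 and 4.56, and 5.31 and 5.42 on the same diets in that order, a main effect of -2.19 (SE 0.22, adjusted p = 0.0075). In both, the trans-fat/HFCS arrays were the lowest and the combined arrays lay between them and the rest. The other kept probe sets had a median of -0.16, taken for each of the 2 over the 30 others. Of the 31 kept probe sets of RXRB 15 were distinct, so this median counts copies with the same values more than once.

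ESR1 held 2 higher calls. Probe set 8122842 gave 4.34 and 4.37 on control, 4.26 and 4.26 on MSG, 6.34 and 6.74 on trans-fat/HFCS and 6.11 and 6.24 on the combined diet. The groups were well apart, with a main effect of 2.05 (SE 0.19, adjusted p = 0.0061). Without the trans-fat/HFCS arrays it was 1.91 (adjusted p = 0.082). Probe set 8122844 was also higher (1.37, SE 0.24, adjusted p = 0.042), but the call was lost on leaving out any 1 array (adjusted p = 0.051 to 0.15), and without the trans-fat/HFCS arrays the difference was 0.62. The gene value of ESR1 had a main effect of 0.09.

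NR3C2 and NR1I2 each held 1 higher call against the run of their other probe sets. In NR3C2, probe set 8103096 gave 3.96 and 2.95 on control, 2.27 and 3.00 on MSG, 6.37 and 6.28 on trans-fat/HFCS and 5.14 and 5.76 on the combined diet. Its main effect was 2.84 (SE 0.32, adjusted p = 0.01), and the median of the other 9 was -0.92. The call was lost without MSG array 1 (2.66, adjusted p = 0.053). In NR1I2, probe set 8081931 rose by 2.68 (SE 0.39, adjusted p = 0.022), while all 8 others were negative, from -1.28 to -0.11. That call was lost without either array of control, trans-fat/HFCS or combined (adjusted p = 0.062 to 0.091). In NR6A1, probe set 8164094 rose by 1.35 (SE 0.21, adjusted p = 0.03), a call lost on leaving out any 1 array (adjusted p = 0.061 to 0.12), and the median of the other 6 was 0.01.

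Both MSG calls were in bright probe sets that dropped on the MSG diet. In NR2E3, probe set 7984615 gave 7.20 and 6.41 on control, 1.80 and 1.97 on MSG, 5.62 and 6.21 on trans-fat/HFCS and 3.19 and 2.63 on the combined diet. Its MSG main effect was -3.97 (SE 0.28, adjusted p = 0.0074), beside a median of 0.09 over the other 6, and the call was lost without control array 1 (adjusted p = 0.055), MSG array 1 (0.086), MSG array 2 (0.075) or trans-fat/HFCS array 2 (0.05). Its 2 readings on the MSG diet lie below the median of all probe sets, and with every array raised to that median the main effect was -3.69. In RARB, probe set 8078287 gave 7.25 and 7.37, 3.61 and 2.94, 7.08 and 6.42, and 5.43 and 5.00 on the diets in the same order, a main effect of -2.79 (SE 0.26, adjusted p = 0.023), beside a median of -0.06 over the other 11. That call was lost on leaving out any 1 array (adjusted p = 0.075 to 0.17).

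**Figure D4:**
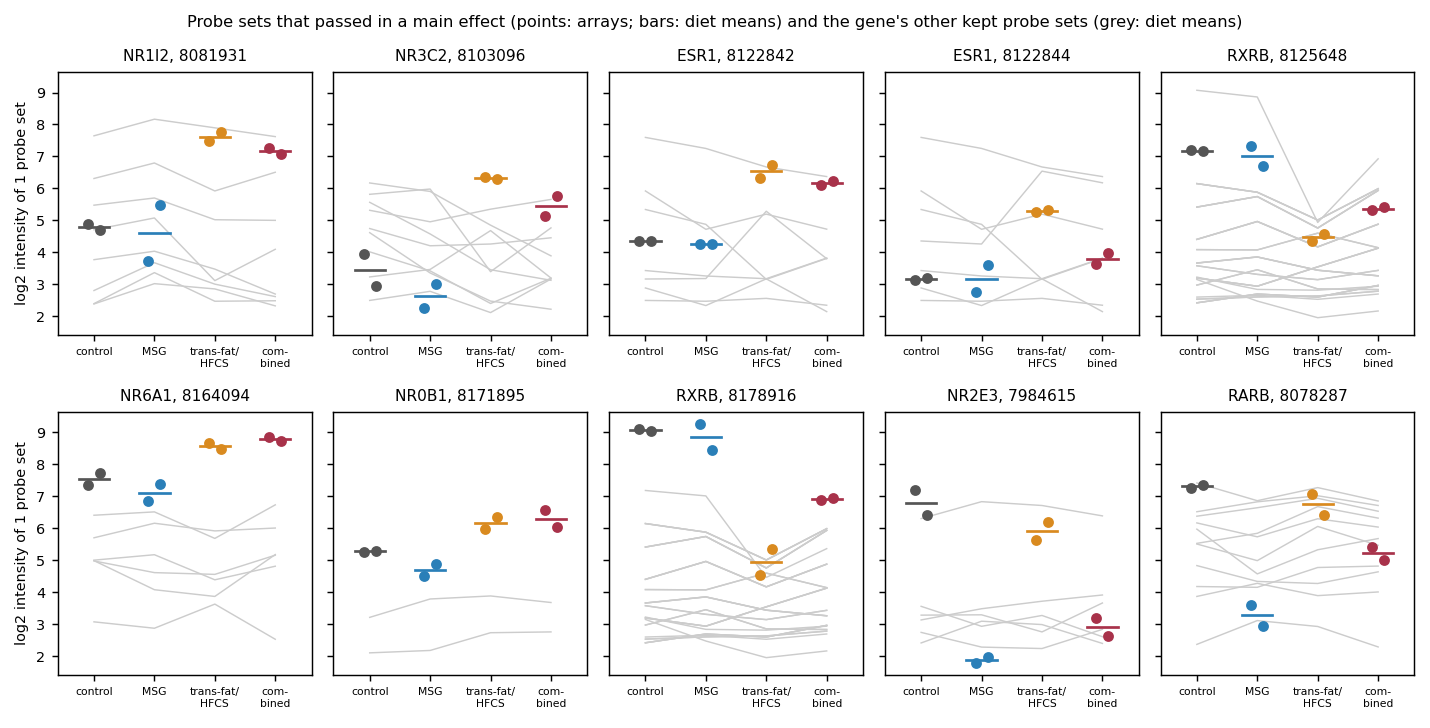
Log2 intensity by diet of each receptor probe set that passed a main effect (points are arrays, bars are diet means), with the diet means of the other kept probe sets of that gene as grey lines. The points of RXRB 8178916 fall from 9.11 and 9.03 on control to 4.53 and 5.34 on trans-fat/HFCS, and those of NR2E3 7984615 from 7.20 and 6.41 on control to 1.80 and 1.97 on MSG.

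Genes known as partners or targets of the receptors were read from 12 lists that share some genes. Of 161 distinct list genes measured 15 (9.32%) passed the trans-fat/HFCS main effect, beside the 7.66% of all genes, and the counts of single lists are to be read beside that share. In the trans-fat/HFCS main effect, 1 of 16 coactivators and 0 of 10 corepressors passed. NCOA1 (SRC-1, which links receptors to histone acetylation) was 5.22 and 5.58 on control, 5.00 and 4.98 on MSG, 4.61 and 4.64 on trans-fat/HFCS and 4.64 and 4.53 on the combined diet. It fell by 0.59 (SE 0.12, adjusted p = 0.025). Among the corepressors HR had the smallest p (0.42, adjusted p = 0.077). Of 9 other nuclear receptors NR0B2 (SHP, the repressor that acts in bile acid feedback) rose by 0.56 (adjusted p = 0.03) and NR4A2 (NURR1, an immediate early receptor) fell by 0.80 (adjusted p = 0.016).

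Of 18 genes of retinoid handling 1 passed, CYP26A1, which breaks down retinoic acid and is induced by it. Its values were 4.35 and 4.29 on control, 3.02 and 3.56 on MSG, 2.98 and 2.95 on trans-fat/HFCS and 3.08 and 2.48 on the combined diet. Control stood above the other 3 diets. The fall was 0.93 in the main effect (SE 0.17, adjusted p = 0.016) and 1.35 between trans-fat/HFCS and control (adjusted p = 0.025), while MSG against control (-1.03) had an adjusted p of 0.22.

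Of 13 genes of thyroid hormone handling 2 fell in the trans-fat/HFCS main effect. ME1, the malic enzyme that supplies NADPH for fat synthesis, was 5.72 and 5.38 on control, 5.09 and 5.00 on MSG, 4.75 and 4.71 on trans-fat/HFCS and 4.68 and 4.48 on the combined diet, a fall of 0.64 (SE 0.13, adjusted p = 0.021). DIO2, which makes active thyroid hormone from thyroxine, was 3.36 and 3.34 on control, 5.16 and 5.43 on MSG, 3.18 and 3.03 on trans-fat/HFCS and 3.39 and 3.61 on the combined diet. Its high values were those of the MSG diet alone. MSG exceeded control by 1.94 (SE 0.18, adjusted p = 0.0024) and combined lay below MSG by a log2 change of -1.79 (adjusted p = 0.003), whereas trans-fat/HFCS against control (-0.25) did not pass (adjusted p = 0.5). The interaction of -1.54 had an adjusted p of 0.082. With the median of probe sets the DIO2 call in MSG against control was lost (2.79, adjusted p = 0.057).

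CPT1A and NR4A2 were likewise highest on MSG. CPT1A, the gate of mitochondrial fatty acid oxidation and a PPAR target, was 4.55 and 4.78 on control, 5.77 and 5.97 on MSG, 4.55 and 4.66 on trans-fat/HFCS and 4.76 and 4.69 on the combined diet. The interaction of -1.08 had an adjusted p of 0.21. In CPT1A MSG exceeded control by 1.20 (adjusted p = 0.027). It was 0.10 (adjusted p = 0.98) with the brightest probe set and 0.61 (adjusted p = 0.05) with no filter, and its call was also lost with the 75th percentile filter (adjusted p = 0.057) and the median of probe sets (0.11). NR4A2 was higher on MSG than on control by 1.60 (adjusted p = 0.018), but by 0.22 with the 75th percentile filter (adjusted p = 0.84) and 0.22 with the brightest probe set (0.9), and the median of probe sets also ended the call (0.088). Both fell in the trans-fat/HFCS main effect (CPT1A by 0.60, adjusted p = 0.022), with trans-fat/HFCS against control at -0.06 and -0.08.

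Of 23 PPAR targets 2 rose in the trans-fat/HFCS main effect and CPT1A fell. VNN1, a pantetheinase, was 3.67 and 3.51 on control, 3.27 and 3.13 on MSG, 5.66 and 5.37 on trans-fat/HFCS and 5.54 and 4.23 on the combined diet, all 4 arrays with trans fat and HFCS above the 4 without. It rose by 1.80 (SE 0.25, adjusted p = 0.0051) on 2 kept probe sets, but by 0.41 with no filter on dim probe sets, where the call was lost (adjusted p = 0.062). ANGPTL4, an inhibitor of lipoprotein lipase, rose by 0.61 on 1 probe set (adjusted p = 0.024). Of 11 LXR targets 1 passed, the desaturase SCD, which fell by 0.80 (SE 0.17, adjusted p = 0.026) in the mean of its probe sets but had a positive difference of 0.97 when read from its brightest one.

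Of 14 PXR and CAR targets 2 rose and 1 fell. ALAS1, the first enzyme of haem synthesis, was 7.43 and 7.23 on control, 7.59 and 7.68 on MSG, 8.20 and 8.47 on trans-fat/HFCS and 8.15 and 8.01 on the combined diet. The groups did not overlap, and the rise was 0.72 (SE 0.12, adjusted p = 0.012). With the median of probe sets it was 0.25 (adjusted p = 0.46). CYP2C8, a drug-metabolising cytochrome, rose by 0.53 (adjusted p = 0.039), and the stress gene GADD45B fell by 0.47 (adjusted p = 0.044).

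In the remaining lists, 1 of 15 HNF4 targets passed (G6PC, the last enzyme of glucose release, which fell by 0.56, adjusted p = 0.039), as did 1 of 13 ERR and PGC1 targets (CYCS, cytochrome c, which rose by 1.08, adjusted p = 0.0045). Of 7 genes of vitamin D handling and 16 of oestrogen, progesterone and mineralocorticoid handling 0 passed in limma. The smallest p were those of CAMP (0.31, adjusted p = 0.18) and HSD17B1 (0.53, adjusted p = 0.053). List medians ran from -0.19 (LXR targets) to 0.13 (retinoid handling), beside 0.02 over all genes. In the MSG main effect 2 genes of all 12 lists passed, DIO2 higher by 1.17 (adjusted p = 0.0068) and GADD45B lower (-0.89, adjusted p = 0.018). DIO2 lost that call with the median of probe sets (1.71, adjusted p = 0.088) and with the brightest (2.52, adjusted p = 0.087). GADD45B lost it with the same 2 summaries (adjusted p = 0.21 and 0.18). A limma model without the interaction also lost both calls (adjusted p = 0.28 and 0.083).

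These calls depended on how probe sets were summarised. With the median of probe sets the calls in the trans-fat/HFCS main effect were kept for VNN1, NR4A2, SCD and DIO2 and lost for the other 11 genes, among them CYP26A1 (-0.71, adjusted p = 0.091), ME1 (-1.24, adjusted p = 0.11), NCOA1 (-0.43, adjusted p = 0.27) and CYCS (0.63, adjusted p = 0.18). With the brightest probe set DIO2 was -0.84 (adjusted p = 0.23), and NR4A2 (0.13), ME1 (0.19) and CPT1A (0.23) changed sign. CYP2C8 was 0.09 with no filter (adjusted p = 0.43), and ANGPTL4 was 0.00.

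On leaving out each array in turn, VNN1, CYCS and DIO2 kept their call in the trans-fat/HFCS main effect each time (adjusted p of at most 0.028, 0.027 and 0.02), as did DIO2 in MSG against control. Every other gene named from the lists lost its call without at least 1 array. ALAS1 lost it without control array 2 (adjusted p = 0.057) and MSG array 1 (0.055), CYP26A1 without control array 1 (0.063), control array 2 (0.057) and MSG array 2 (0.051), and CYP2C8 and GADD45B without any 1 of the 8. Between combined and MSG, where the muscle markers were not raised, VNN1 differed by 1.68 (adjusted p = 0.056), CYCS by 0.87 (adjusted p = 0.082), ALAS1 by 0.44 (adjusted p = 0.24), CYP26A1 by -0.51 (adjusted p = 0.33) and NCOA1 by -0.41 (adjusted p = 0.28).

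**Figure D5:**
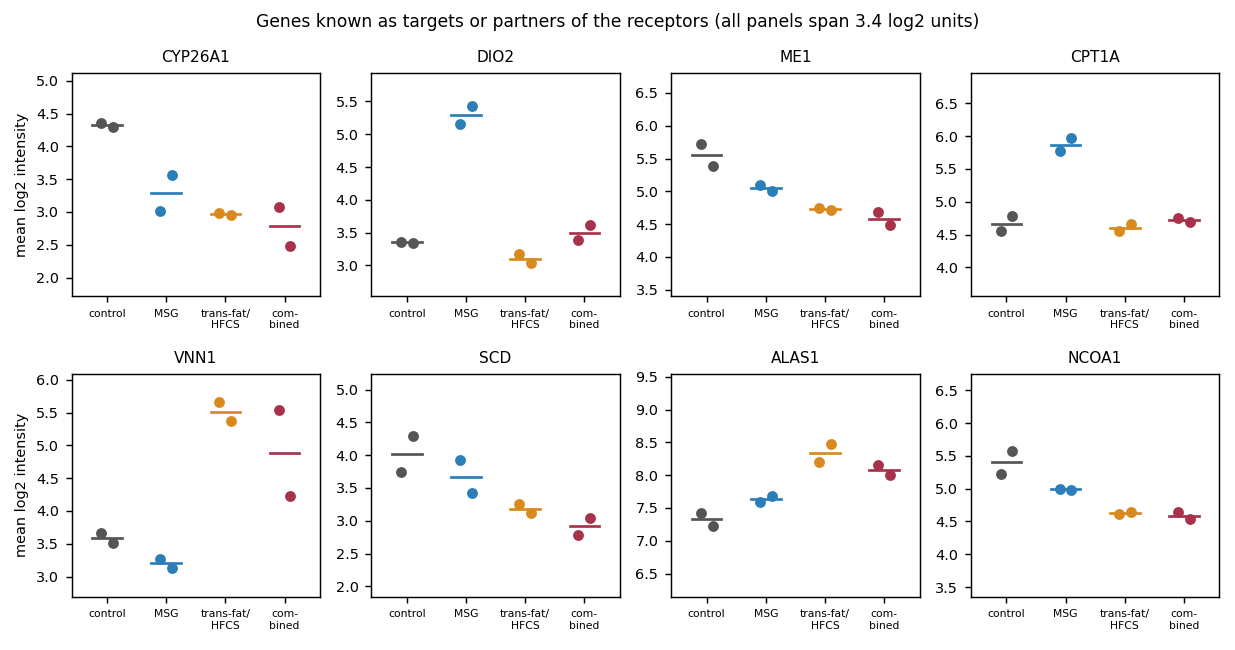
Mean log2 intensity on each array for 8 genes known as targets or partners of the receptors, all panels spanning the same number of log2 units. CYP26A1 is highest on control, DIO2 and CPT1A on MSG, and VNN1 and ALAS1 on the diets with trans fat and HFCS.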

How the data were processed

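Liver RNA was measured on 8 arrays, 2 per diet. For each exon-level probe set the authors deposited a normalized intensity, which the range of values shows to be linear, with GCRMA, Partek and the human build hg19 named per the submitters' processing notes without roles or versions. The deposited intensity was log2 transformed here. The platform annotation names 1 gene for 224320 probe sets. Probe sets whose mean exceeded the median of all were kept, and the 111624 kept ones with 1 gene were averaged per gene, giving 17910 genes. limma 3.58.1 in R 4.3.3 fitted the 4 diets together (4 residual degrees of freedom, prior 5.01), two-sided. The interaction was the MSG effect with trans fat and HFCS less the MSG effect without. A second fit used single probe sets. The number of arrays limits the precision, and cat RNA on human probes lowers signal where sequences differ. Within a diet, arrays correlated at 0.946 to 0.968.

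The receptors and lists were chosen with earlier results of these data known. Array values are given for each receptor called and, in each role group without a call, for the one with the smallest F-test p. For each list, up to 4 called genes, or else the one with the smallest p, are named. Other receptors and probe sets given with array values, among them RXRA, RARB, ESR1, THRB and NR5A2, were chosen after their values were seen. Replicate numbers did not pair arrays across diets, since the correlation of deviations was -0.0555 to 0.0433 over 6 pairs of diets. The fit was tested on simulated data. Alternatives were other filters, gene summaries, scalings, a replicate block and leaving out arrays. No genome or sequence was used here.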

Additional observations from a re-analysis of the deposited data

How the results depend on the processing

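The count of receptors passing the trans-fat/HFCS main effect, 1 in the reported analysis, was 3 with a filter at the 75th percentile (NR0B1, RXRB and THRA), 6 with the brightest probe set of each gene (ESR1, NR0B1, NR6A1, PPARD, RXRB and THRA), 2 with 16 added to intensities (NR0B1 and THRA), 0 with the median of probe sets, 0 with the replicate number as a block (NR0B1 adjusted p = 0.054) and 0 without both trans-fat/HFCS arrays, and ran from 0 to 1 on leaving out each array in turn (NR5A1 in place of NR0B1 without combined array 2). The counts of 0 in the other tests became, with the 75th percentile filter, 1 in the MSG main effect (NR2E3), 1 in MSG against control, 1 in trans-fat/HFCS against control, 1 in combined against control and 2 in the F-test. Of all 14590 genes tested with that filter 84, 95, 834, 513 and 1000 passed in the same order, and 2056 passed the trans-fat/HFCS main effect. With the brightest probe set the counts of 0 became 2 in trans-fat/HFCS against control, 3 in combined against control and 5 in the F-test. Of all 17910 genes 1120, 730 and 1217 passed there. With 16 added 1 receptor passed the F-test, beside 1448 of all genes. The count of receptor probe sets passing that effect, 8 in the reported analysis, was 5 with the replicate block and 4 to 5 on leaving out each array. It was 0 without both trans-fat/HFCS arrays, and its highest over the alternatives was 12. It can include probe sets other than those 8, and the shares of all probe sets are not given for these settings. The alternatives of the probe set fit were chosen after seeing the data. Over all genes the 1372 calls of the trans-fat/HFCS main effect became 595 with the median of probe sets, 2182 with the brightest, 2434 with 16 added, 443 to 1234 on leaving out each array and 233 without both trans-fat/HFCS arrays. The cause of these shifts was not tested. On leaving out each array in turn, list genes lost calls in the trans-fat/HFCS main effect as follows: NR4A2 without 3 of the 8 arrays (adjusted p up to 0.067), ME1 and SCD without 5 (up to 0.081 and 0.091), CPT1A, ANGPTL4 and NCOA1 without 6 (up to 0.087, 0.095 and 0.095), NR0B2 and G6PC without 7 (up to 0.11 and 0.14). In MSG against control NR4A2 lost its call without 3 (up to 0.18) and CPT1A without 6 (up to 0.29), and in the MSG main effect DIO2 without either control array (0.055 and 0.058) and GADD45B without 6 (up to 0.11). With the replicate block CPT1A also lost its call in MSG against control (adjusted p = 0.056).

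Differences that changed sign with the 75th percentile filter were NR1I2 (0.07), NR5A1 (-0.29), NR4A2 (0.13) and SCD (0.97). With the median of probe sets RXRB did (0.19). With the brightest probe set PPARG (0.31), NR5A1 (-0.29), NR3C2 (0.37), NR2E3 in the MSG main effect (0.10), NR4A2 (0.13), ME1 (0.19), CPT1A (0.23) and SCD (0.97) did. With no filter ANGPTL4 was 0.00 (adjusted p = 0.98 in limma), which gives no sign. The cause of these changes was not tested. The count of 24 receptors above the median became 9 above the 75th percentile and 36 with the brightest probe set of each gene. It ran from 23 to 25 on leaving out each array in turn. Of all 18701 genes 17910 had their brightest probe set above the median, so the count of 36 is not particular to the receptors. With 2 arrays per diet, comparisons of single diets and the interaction are bounded less closely than the main effects, and receptors with 2 kept probe sets (PPARA, RXRG, NR1I3 and NR2E1) rest on little signal.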
